A study of Mus musculus with 6 samples.

Results

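Liver of mice treated with carbon tetrachloride (CCl4) was compared with liver of mice given the corn oil vehicle alone, as 1 RNA sequencing library on each side out of 6 libraries in the series. Every gene with at least 10 reads in either of the 2 libraries was compared, which gave 13602 genes of the 18384 with reads in any library of the series. Both libraries are from male C57BL/6 mice, labelled 6 to 8 weeks old. The corn oil liver is labelled as a normal control and the CCl4 liver as fibrotic, and the CCl4 was given in the same corn oil by repeated injection into the abdomen. The other libraries are a chow control, a high-fat diet liver, and a liver of each model treated with JT003, a peptide agonist of the adiponectin receptors. Whether a library holds RNA from 1 mouse or from several is not stated, and the RNA came from frozen liver tissue with all its cell types.

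CCl4 is a solvent that the pericentral hepatocytes, the cells around the central vein, convert through the cytochrome P450 CYP2E1 into a radical that kills them. Repeated dosing makes the surviving hepatocytes divide, draws in monocytes, and turns hepatic stellate cells, the vitamin A storing cells of the sinusoid, into collagen-producing myofibroblasts. The model is widely used to produce scar in the rodent liver, and a piece of such liver holds a mixture of cells. In whole liver, fewer cells of a type and less RNA per cell cannot be told apart.

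The corn oil library held 19409752 reads assigned to genes and the CCl4 library 20156841, and 5.75% and 7.55% of them came from albumin (Alb). Y-linked genes were read in both livers, with 751 reads of Ddx3y in corn oil and 828 in CCl4. Xist, the RNA of the inactive X chromosome, had 18 and 4 reads. No pancreatic acinar marker reached 10 reads in either library.

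Values are given as reads (the rounded expected counts), corn oil first and CCl4 second, and as the log2 ratio of CCl4 over corn oil. The log2 ratio and the CPM (counts scaled to depth) are corrected for library size and composition, and its 95% interval covers counting error only. With no replicate on either side the intervals say nothing about the spread between mice, and no test was made. A gene is called higher or lower in the CCl4 library when its log2 ratio is at least 1 in size and its interval leaves out 0. The authors' tables also hold a column of CCl4 counts that sums to 2.97 times the CCl4 library. What is left of it after that library is removed, 39780549 reads, is set beside the results as the remaining pooled CCl4 counts. It shares the corn oil library with the main comparison, and the CCl4 to chow ratio shares the CCl4 library, so neither is an independent check.

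Most genes stood close to the same level in the 2 livers. The log2 ratio lay within 0.5 of 0 in 65.3% of the genes and had a median of 0.01. In all, 1099 genes were higher in the CCl4 library (8.08% of those compared) and 624 were lower (4.59%), so 63.8% of the called genes were higher. Every list count below is to be read beside these shares, and a count near them is not particular to the list. More of the higher genes lay far out, with 367 genes at a log2 ratio of 2 or more against 136 at -2 or less. Scaling by total reads moves the median over all genes up by 0.23 and moves the share of called genes that were higher to 79.6%. The medians of 11 of the 59 gene lists change sign with it, and a list median within that distance of 0 is given as a value without a direction. The threshold was not a natural gap, since 328 genes had a log2 ratio of 0.9 to 1 in size and 281 had one of 1 to 1.1.

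**Figure D1:**
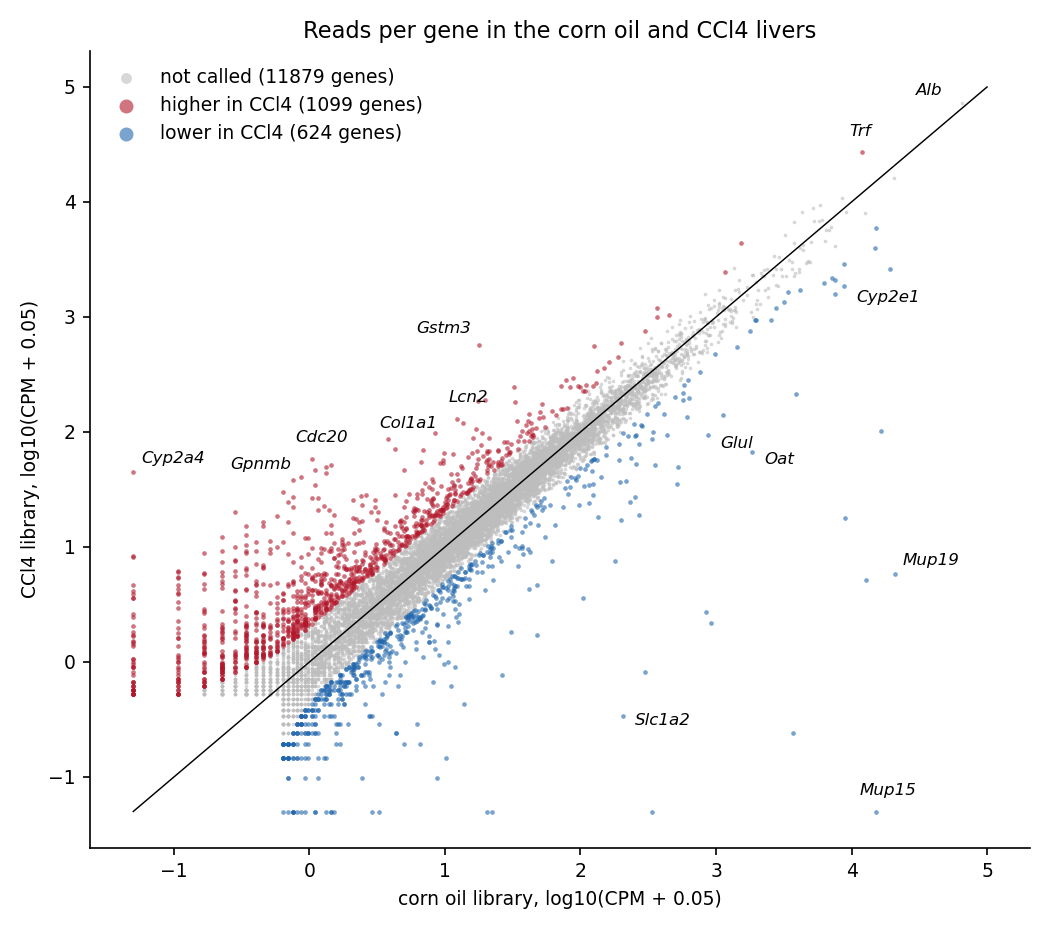
Level of each of the 13602 genes in the corn oil library (x axis) and the CCl4 library (y axis), both as log10 of CPM plus 0.05. Red points are the 1099 genes called higher in CCl4, blue points the 624 called lower, and grey points the rest. The line marks equal levels, and the blue genes far below it at the right are mostly major urinary protein genes.

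The balance of higher and lower calls differed with abundance, taken as the larger of the 2 levels. Among the 147 genes with 1000 or more CPM in either liver, 18.4% were lower and 4.1% were higher. Among the 4560 genes between 1 and 10 CPM the order was the other way round, with 6.6% lower and 14% higher. The called genes that were lower gave up 185204 CPM in sum, while those that were higher gained 36810.

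The reads lost from the CCl4 library came from a small set of hepatocyte secretory and metabolic genes. The 10 largest losses summed to 123558 CPM. Mup19, Mup10, Mup14, Mup15, Mup11 and Mup7, all major urinary proteins that male mice make in the liver and excrete as pheromone carriers, were among them. The others were Serpina1e and Serpina3k, inhibitors of serine proteases, Cyp2e1 itself, and Mat1a, which makes S-adenosylmethionine in the hepatocyte. Mat1a had 151597 reads in corn oil and 60206 in CCl4 (log2 ratio -1.62, interval -1.63 to -1.61).

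The 10 largest gains were all in abundant liver genes and most were modest in proportion. Transferrin (Trf), the iron carrier of plasma, gained most, from 204081 reads to 567485 (log2 ratio 1.19). It was followed by albumin, Scd1, Hpx, C3, Cyp3a11, Gstm1, Ahsg, Pzp and Gc. Of these 10 genes only Trf and Gstm1 passed the fold threshold, and albumin had a log2 ratio of 0.16.

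Genes of mitosis and cytokinesis were higher in the CCl4 liver almost without exception. Of the 44 on the list, 43 were higher in the CCl4 library, none was lower, and the median log2 ratio was 4.03 against 0.01 for all genes. Of the 44 genes 15 had under 10 reads in corn oil and entered only through the CCl4 library, where they are high, so their direction was fixed by the filter. Of the 29 with 10 reads in both livers 28 were higher. The summed level of the list was 69.9 CPM in corn oil and 814 in CCl4. The exception was Spc24, a kinetochore protein, with 319 and 714 reads (log2 ratio 0.87), which passed the threshold when libraries were scaled by total reads.

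Cdc20, the activator of the anaphase-promoting complex (Entrez gene 107995), had 17 reads in corn oil and 1229 in CCl4, a log2 ratio of 5.74 (5.20 to 6.67). Ccnb1 and Ccnb2 encode the cyclins that drive entry into mitosis. Ccnb1 (268697) had 10 and 632 reads (log2 ratio 5.46), and Ccnb2 (12442) had 18 and 976 (5.34). Plk1 (18817), a kinase of the spindle and centrosome, had 12 and 564 (5.07). Mki67, which coats mitotic chromosomes and is the usual marker of dividing cells, had 22 and 929 (5.0, interval 4.50 to 5.79). The spindle checkpoint kinase gene Bub1 had no read in corn oil and 80 in CCl4, at least 21.8-fold higher against a floor of 3 reads. The chow liver was near the corn oil level, with 7 reads of Cdc20, 1 of Ccnb1, 10 of Ccnb2, 6 of Plk1 and 18 of Mki67. In the remaining pooled CCl4 counts the list had a median log2 ratio over corn oil of 3.59.

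Promoters of mitosis genes are known to carry the cell cycle homology region, TTTGAA or TTTAAA, and CCAAT boxes bound by NF-Y. RefSeq promoters on GRCm38.p6, 250 bases before to 50 after a start site, were found for 36 of the 44 genes, in 38 promoters. TTTGAA or TTTAAA stood in 81.6% of them on either strand, against 27.6% of all 32851 promoters in the table and 20.1% of those of the genes compared. CCAAT stood in 78.9%, against 37.4% of all promoters, and 68.4% held both kinds, against 10.7%. The E2F-type letters GGCGGGAA and TTTGGCGC were in 0 of these 38 promoters, against 2.2% and 0.5% of all. These are matches of letters in a fixed window and not sites shown to be bound.

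The promoters of the 4 genes of this mitosis list with the largest log2 ratios at 100 reads or more are shown because they carry these motifs side by side near the start site. Capitals mark the CCAAT box, and the homology region as TTTGAA or as its variant TTTAAA. Each sequence reads 5′ to 3′ in the direction of the gene. Cdc20 lies on the minus strand at chr4:118437294-118437593, Ccnb1 on the minus strand at chr13:100786437-100786736, Ccnb2 on the minus strand at chr9:70421505-70421804, and Plk1 on the plus strand at chr7:122159185-122159484, all GRCm38.p6.
Cdc20: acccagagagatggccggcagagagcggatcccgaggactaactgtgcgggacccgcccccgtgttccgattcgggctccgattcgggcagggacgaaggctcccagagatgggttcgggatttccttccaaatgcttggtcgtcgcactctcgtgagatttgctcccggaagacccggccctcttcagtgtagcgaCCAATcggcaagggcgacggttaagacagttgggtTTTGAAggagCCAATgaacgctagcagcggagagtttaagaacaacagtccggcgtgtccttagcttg
Ccnb1: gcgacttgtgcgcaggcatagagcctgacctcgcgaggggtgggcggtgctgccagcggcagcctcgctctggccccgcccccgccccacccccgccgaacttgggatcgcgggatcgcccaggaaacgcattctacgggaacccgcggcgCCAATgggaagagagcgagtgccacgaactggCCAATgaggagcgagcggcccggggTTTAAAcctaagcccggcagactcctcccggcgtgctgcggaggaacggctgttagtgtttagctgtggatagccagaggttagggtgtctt
Ccnb2: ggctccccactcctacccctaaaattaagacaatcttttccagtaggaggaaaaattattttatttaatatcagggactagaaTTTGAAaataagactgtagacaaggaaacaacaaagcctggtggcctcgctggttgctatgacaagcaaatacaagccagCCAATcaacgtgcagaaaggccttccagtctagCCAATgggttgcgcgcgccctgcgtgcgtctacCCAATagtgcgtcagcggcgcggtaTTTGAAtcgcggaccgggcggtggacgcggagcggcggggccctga
Plk1: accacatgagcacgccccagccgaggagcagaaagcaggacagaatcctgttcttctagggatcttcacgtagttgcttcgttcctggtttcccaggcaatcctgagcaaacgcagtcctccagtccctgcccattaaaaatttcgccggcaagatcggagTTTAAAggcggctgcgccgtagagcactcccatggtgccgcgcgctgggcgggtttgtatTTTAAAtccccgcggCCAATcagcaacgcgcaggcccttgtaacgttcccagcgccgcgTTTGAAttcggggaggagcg
Cdc20 holds 2 CCAAT and 1 TTTGAA, and Ccnb1 holds 2 CCAAT and 1 TTTAAA. Ccnb2 holds 3 CCAAT with 2 copies of TTTGAA, and Plk1 holds 1 CCAAT with 3 copies of TTTGAA or TTTAAA.

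Genes that copy DNA were higher as well, but less uniformly. Of 34 compared, 15 were higher and 1 was lower, with a median log2 ratio of 0.87. Rrm2, the inducible subunit of ribonucleotide reductase, had 93 reads in corn oil and 601 in CCl4 (2.38), and the helicase subunit gene Mcm5 had 28 and 182 (2.34). Gins2, a partner of that helicase, had 2 and 121 reads, a log2 ratio of 4.73 with an interval of 3.75 to 8.69. Pcna, the sliding clamp, had 384 and 554 (0.24) and was not called. Mcm10 went the other way, with 1985 and 725 reads (-1.74), and had 1938 in chow.

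Promoters of the replication list differed in their letters from those of the mitosis list. In its 35 promoters TTTGAA or TTTAAA stood in 22.9%, GGCGGGAA in 20% and TTTGGCGC in 14.3%. CCAAT stood in 60.0% of them.

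**Figure D2:**
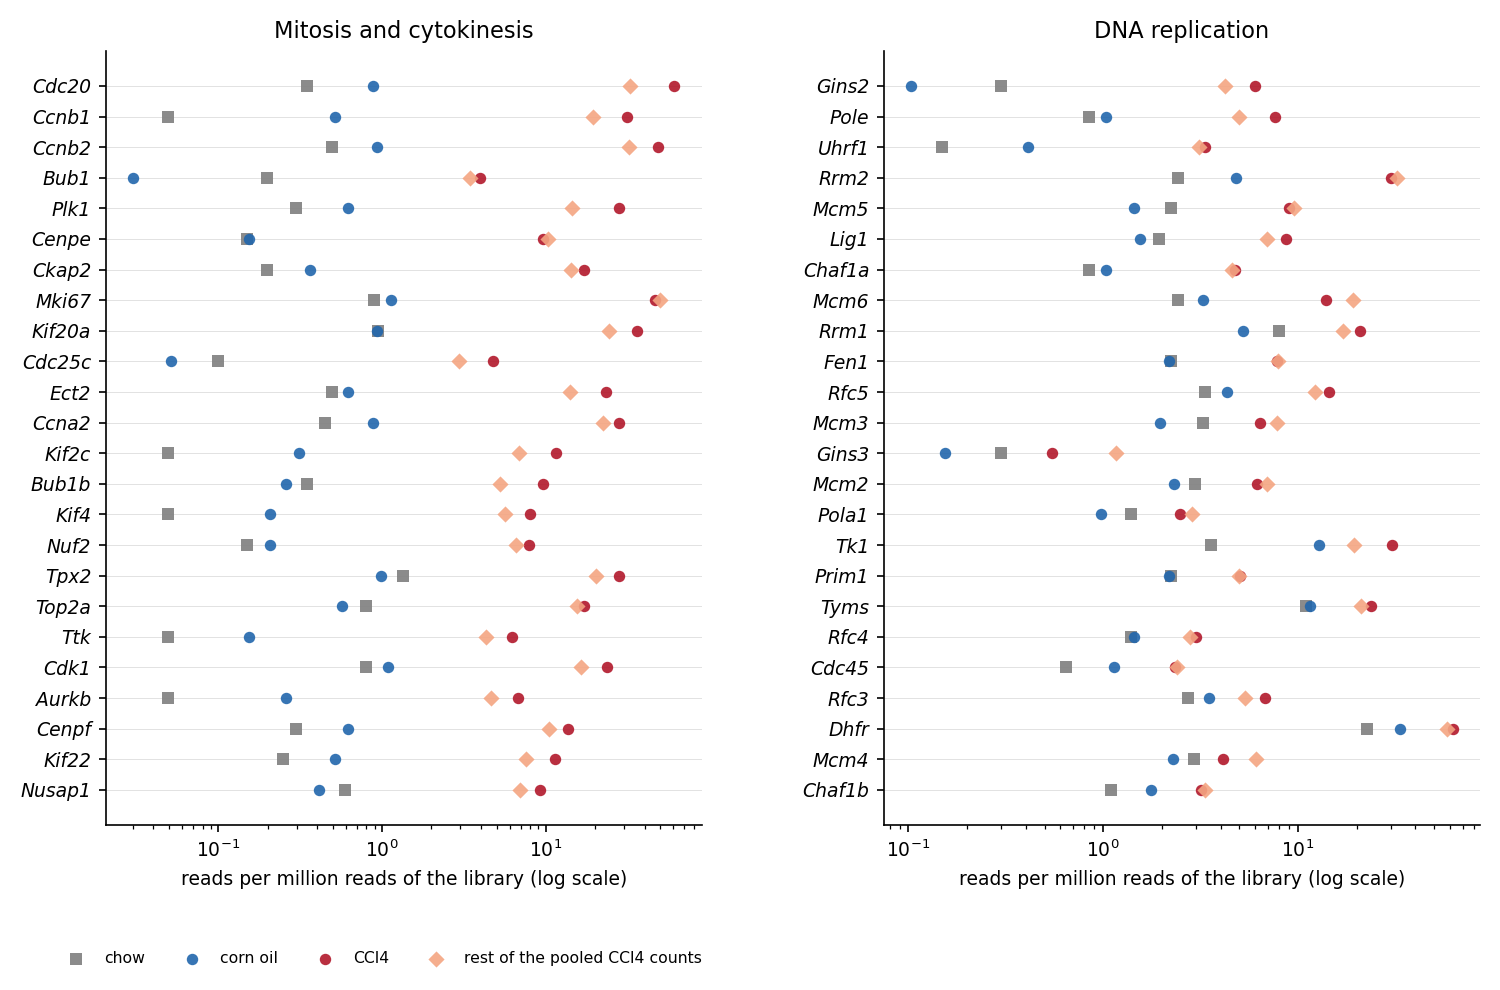
Reads scaled to the total of each library (log scale) for the 24 mitosis genes and the 24 replication genes with the largest log2 ratios of CCl4 over corn oil. Grey squares are chow, blue circles corn oil, red circles CCl4, and orange diamonds the remaining pooled CCl4 counts, with a value of 0 drawn at 0.03. In the mitosis panel the red and orange points stand to the right of the grey and blue points in every row.

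Drivers and inhibitors of entry into the cycle were both among the higher genes. Cyclin D1 (Ccnd1), which starts G1 progression, had 300 reads in corn oil and 3866 in CCl4 (3.39, interval 3.23 to 3.57). Cdkn1a, the p21 inhibitor and a p53 target, was also higher, at 1050 and 3208 (1.32). Myc had 211 and 175 reads (-0.55). In all, 6 of 20 G1 genes were higher and none was lower, with Cdkn2c, Rbl1, E2f1 and E2f2 making up the rest.

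Of 20 p53 targets, 6 were higher and none was lower, with a median log2 ratio of 0.59. Eda2r, a receptor of the TNF receptor family, had 3 and 98 reads (4.10, interval 3.15 to 7.04), and Phlda3, an inhibitor of AKT, had 25 and 224 (2.79). Mdm2, which degrades p53, had 519 and 746 (0.23). Gtse1, Cdkn1a, Zmat3 and Plk2 made up the rest of those called, and Gtse1 is itself a mitotic gene.

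Tubulins, the building blocks of the spindle and of the cell's transport tracks, followed the cycle genes in part. Of 12 compared, 5 were higher and none was lower. Tubb6 had 169 and 1387 reads (2.74) and Tuba1b had 566 and 3845 (2.47), while Tuba4a had 2520 and 2723 (-0.18). Tubulin genes are much alike in sequence, so reads can be shared between them, but the summed counts were higher too, with a log2 ratio of 0.75 for the alpha genes and 1.44 for the beta genes.

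The scar collagens were higher in the CCl4 liver, and the gene list as a whole was more mixed. Of 17 collagen chains 7 were higher and none was lower, with a median log2 ratio of 0.76. The fibrillar chains led. Col1a1 had 231 reads in corn oil and 2483 in CCl4 (3.13, interval 2.94 to 3.34), Col3a1 had 291 and 2214 (2.63), and Col1a2 had 323 and 2051 (2.37). Chow held 178, 352 and 247 reads of the same genes. Col18a1, a collagen that hepatocytes themselves make, had the most reads of the list with 14307 and 20460 (0.23).

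Among other matrix genes 12 of 33 were higher and 2 were lower (median 0.62). With 10 reads in both livers 10 of 31 were higher and 2 were lower. Nid1, which links laminin to collagen IV in basement membranes, had 165 and 1128 reads (2.47), and Sparc, a collagen-binding matrix protein, had 858 and 3138 (1.58). Lox, which crosslinks collagen and elastin, had 12 and 36 (1.18, interval 0.32 to 2.37). The proteoglycan decorin (Dcn) had 2236 and 1743 reads (-0.65), and Ecm1 was lower, at 2096 and 1199 (-1.09). The last 2 are expressed by quiescent stellate cells in normal liver.

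Among genes of matrix turnover, proteases and inhibitors alike were higher. Of 21 compared, 11 were higher and 1, Mmp3, was lower. Mmp3 (12 and 0 reads) entered only through the corn oil library, and Mmp12 and Mmp8 only through the CCl4 library. With 10 reads in both livers 9 of 16 were higher and none was lower. The macrophage elastase Mmp12 had no read in corn oil and 175 in CCl4, at least 47.8-fold higher, with 9 reads in chow. Mmp14, the membrane-bound collagenase, had 764 and 1972 reads (1.08), and the inhibitor Timp1 had 12 and 38 (1.25). Mmp2 had 70 and 136 (0.66) and Mmp13 had 3 and 10 (1.06, interval -0.51 to 3.95).

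Over corn oil, markers of stellate cells and myofibroblasts did not follow the collagens. Of 21 compared only Nes, an intermediate filament gene, was higher (22 and 60 reads, 1.1), 3 were lower, and the median was 0.24. Over chow 5 of 20 were higher and 3 were lower, with a median of 0.24. Tagln and Myl9 had 83 and 13 reads in chow, and 306 and 77 in CCl4. Acta2, the smooth muscle actin that defines myofibroblasts, had 165 reads in corn oil and 108 in CCl4 (-0.89, interval -1.26 to -0.54). Its level in chow was 31 reads, so its log2 ratio over chow was 1.6. Cnn1 (24 and 0 reads) and Tpm2 (107 and 51, -1.32), which also make up contractile filaments, were lower in CCl4, and had 1 and 39 reads in chow. Pdgfrb, the receptor for the stellate cell mitogen PDGF, had 143 and 285 reads (0.70), and Lrat, which stores vitamin A, had 135 and 142 (-0.21).

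Of 23 genes of TGF-beta and activin signaling 3 were higher and 1 was lower, with a median of 0.01, where 8.08% and 4.59% of all genes were called. Over chow 1 was higher and 6 were lower, with a median of -0.51. Tgfb1, the main profibrotic ligand, had 103 and 257 reads (1.02), and 184 in chow. Inhba, a subunit of activin A, had 30 and 137 (1.84), and its antagonist Fst had 52 and 130 (1.01). Ctgf, a target of TGF-beta, had 228 and 219 (-0.34), and 384 in chow. Bmp2 was lower, at 265 and 131 (-1.29).

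**Figure D3:**
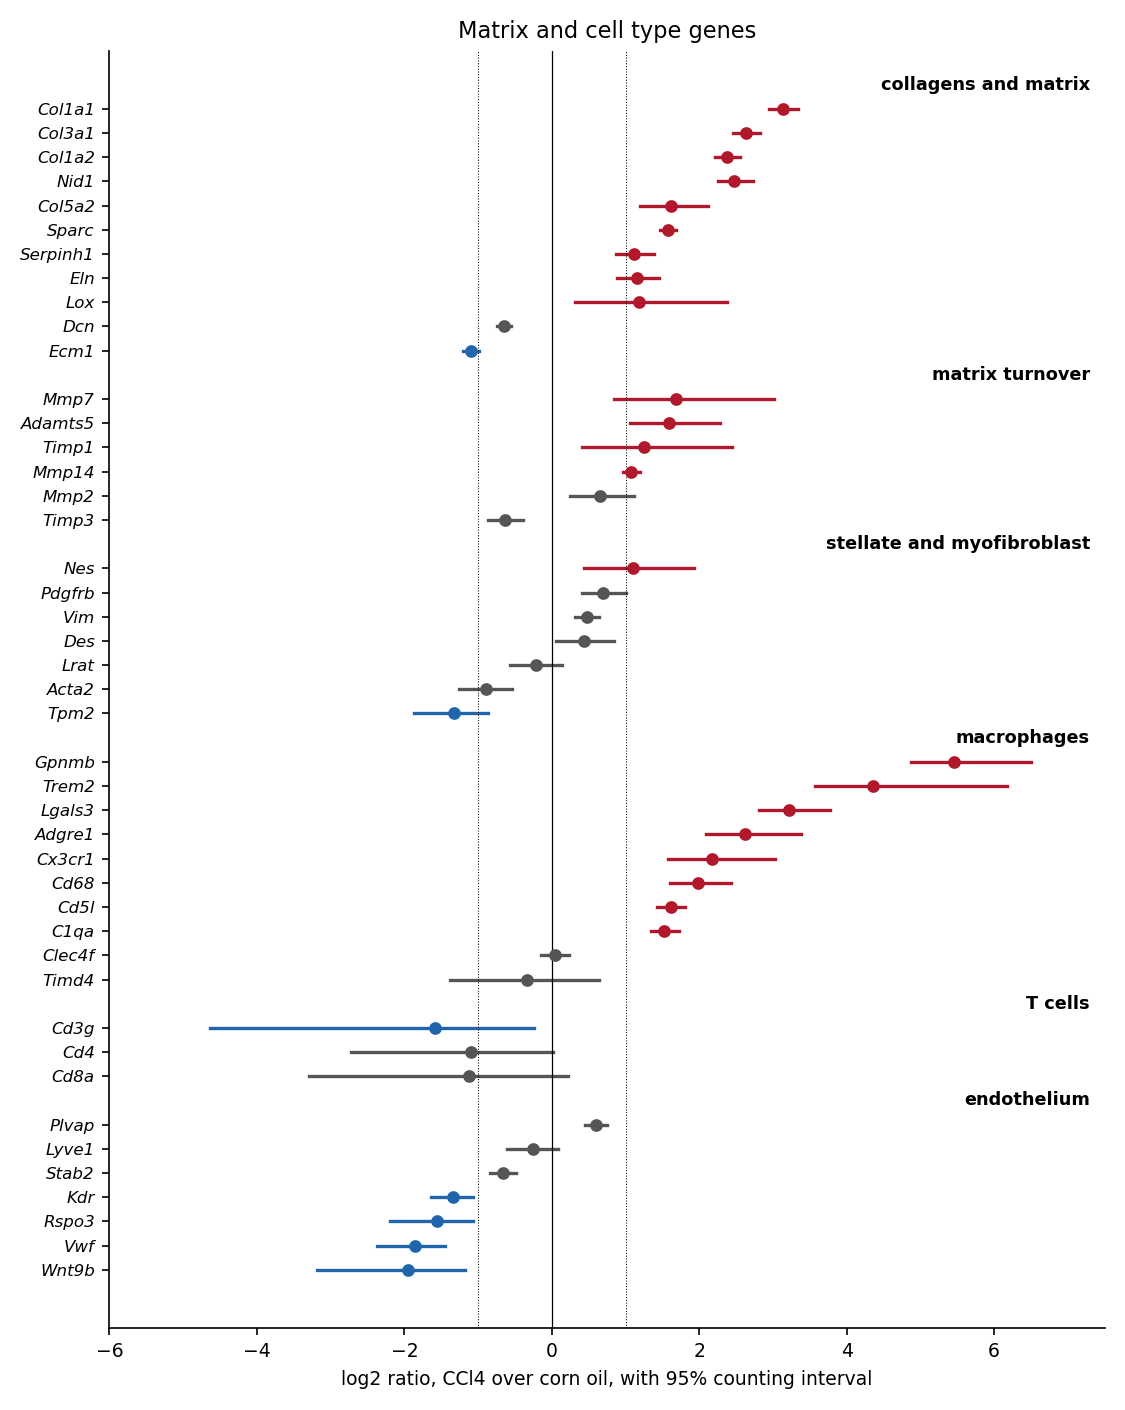
Log2 ratio of CCl4 over corn oil (points) with its 95% counting interval (bars). The genes are those of the matrix, of stellate cells and myofibroblasts, macrophages, T cells and endothelium. Red marks genes called higher, blue genes called lower and grey genes not called. Dotted lines mark log2 ratios of -1 and 1. Col1a1, at 3.13, and Gpnmb, at 5.45, stand highest among the genes drawn for their groups, and Acta2 lies at -0.89.

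Genes of recruited macrophages were higher in the CCl4 liver. Of 18 genes of monocyte-derived and lipid-associated macrophages, the cells that gather in scars and clear debris, 15 were higher and none was lower, with a median log2 ratio of 2.08. With 10 reads required in both livers 12 of 15 were higher. Over chow 10 of the 18 were higher and 2 were lower, with a median of 1.39. The list holds general macrophage genes too, and of these Csf1r (-1.07), Adgre1 (-0.74) and Itgam (-0.16) changed direction over chow. Gpnmb had 14 reads in corn oil and 843 in CCl4 (5.45, interval 4.87 to 6.50). Trem2, the lipid receptor of these cells, had 6 and 193 (4.36), and Lgals3, galectin-3, had 41 and 485 (3.22). Chow had 33, 22 and 120 reads of these genes. Spp1, osteopontin, which bile duct cells make as well, had 2597 in CCl4 and a log2 ratio of 1.87. The monocyte marker Ly6c2 had 21 and 24 reads (-0.09).

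The direction of general macrophage genes depended on the control. The pan-macrophage gene Adgre1 (F4/80) had 24 reads in corn oil, 191 in CCl4 and 290 in chow, so it was higher over corn oil (2.62) and not over chow (-0.74). Of 12 Kupffer cell genes, those of the resident liver macrophages, 5 were higher than in corn oil, with a median of 0.86, and the median over chow was -0.96. C1qa had 289, 1017 and 846 reads in corn oil, CCl4 and chow. Clec4f, which is specific to Kupffer cells, had 413, 517 and 1418, and Timd4 of the self-renewing resident cells had 19, 18 and 110. Gpnmb, Trem2, Lgals3 and Mmp12 stood above both controls.

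Lymphocyte genes had few reads. Of 8 T and NK cell genes with 10 reads or more none was higher and 2 were lower, Cd3g (11 and 3 reads) and the chemokine gene Ccl5 (23 and 11), of which 1 was left with scaling by total reads. Cd3g entered only through the corn oil library, and with 10 reads in both livers 1 of 4 was lower. In the remaining pooled CCl4 counts Ccl5 had a log2 ratio of 0.74. No B or plasma cell gene was called among 6. Of the dendritic cell genes Xcr1 (83 and 27 reads, -1.83) and Clec9a (49 and 25, -1.19), both of the cross-presenting subset, were lower and Ccr7 (2 and 13) was higher. Ccr7 entered only through the CCl4 library.

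Genes of neutrophils were detected at low levels, with Ngp (2 and 12 reads) and Mmp8 (0 and 10) higher of 7 compared. S100a8 had 15 and 21 reads and S100a9 had 19 and 39, with log2 ratios of 0.18 and 0.70. Ngp and Mmp8 entered only through the CCl4 library. The median of the list was 0.70 here and 1.91 in the remaining pooled CCl4 counts. Of 17 chemokine and receptor genes 9 were higher and 1 was lower, with a median of 1.19 over corn oil and 0.20 over chow. Ccl4 and Cxcr4 entered only through the CCl4 library, and with 10 reads in both livers 7 of 13 were higher and 1 was lower. Cx3cr1 (20 and 118 reads, 2.17), the fractalkine receptor, and Ccr2 (18 and 61, 1.39), which brings monocytes out of the marrow, were among the higher genes.

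Endothelial genes were lower where they were called. Of 20 genes of sinusoidal and vascular endothelium none was higher and 7 were lower, with a median of -0.74, and scaling by total reads left 5 of them. Kdr, the main VEGF receptor, had 320 reads in corn oil and 153 in CCl4 (-1.34), and Vwf had 165 and 54 (-1.86). Plvap, a protein of the diaphragms that close fenestrae, had 556 and 1027 (0.60). The list median over chow was -1.39, and that of the remaining pooled CCl4 counts over corn oil was -0.09.

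The endothelial signals that set up the pericentral zone were among those lower. Wnt9b had 43 reads in corn oil and 12 in CCl4 (-1.95), Rspo3 had 98 and 39 (-1.56), and Wnt2 had 47 and 25 (-1.13). In the remaining pooled CCl4 counts over corn oil none of the 20 endothelial genes was called, these ligands included. These ligands are made by the central vein and sinusoidal endothelium and act on neighbouring hepatocytes through beta-catenin. Whether their levels bear on the pericentral genes was not tested.

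In the hepatocytes the pericentral list split. Of 22 genes 7 were lower, 2 were higher and the median was -0.28. The glutamate transporter gene Slc1a2 had the lowest log2 ratio outside the Mup family, with 3513 reads and 6 (-9.03, interval -10.93 to -8.36), with 3150 reads in chow. Oat, ornithine aminotransferase, had 31746 and 1413 reads (-4.78), and Glul, glutamine synthetase, had 14862 and 1962 (-3.21). Chow stood at 30312 and 17991 for these 2 genes. Cyp2e1, which activates CCl4, had 151340 and 39104 reads (-2.24, interval -2.26 to -2.22).

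Other pericentral and Wnt target genes were spread around the corn oil level. Sp5, a direct Wnt target, was lower (64 and 24 reads, -1.62), as were Rhbg, an ammonium transporter (200 and 86, -1.48), and Cyp7a1. Lgr5, a Wnt receptor component, had 85 and 54 (-0.92) and the transcription factor gene Tbx3 had 871 and 658 (-0.69). Cyp1a2 had 6742 and 12354 reads (0.59), Gulo had 5233 and 6750 (0.08), and Axin2, another direct Wnt target, had 190 and 367 (0.66). The amino acid transporter gene Slc1a4 was higher, at 41 and 352 (2.76). The periportal list was near level, with 2 of 18 higher, 2 lower and a median of -0.18. Hsd17b6, a steroid dehydrogenase, was higher (557 and 5179 reads, 2.92), as was E-cadherin (Cdh1, 326 and 1296, 1.70), while the urea cycle gene Asl was lower (24522 and 11572, -1.37) but had 12773 reads in chow.

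Markers of bile duct cells and of fetal or regenerating liver were higher. Of 13 cholangiocyte genes 7 were higher and none was lower (median 1.04). Epcam had 33 and 109 reads (1.39), Sox9 had 161 and 440 (1.15) and Krt19 had 52 and 93 (0.53). Cldn4 (2 and 24 reads) entered only through the CCl4 library, and with 10 reads in both livers 6 of 12 were higher. Over chow 10 of 13 were higher (median 1.93). In the remaining pooled CCl4 counts over corn oil 3 of 14 were higher and none was lower (median 0.63). Of 14 fetal and regenerating liver genes 8 were higher and 1, Gpc3, was lower (median 1.80). H19 and Akr1b7 entered only through the CCl4 library, and with 10 reads in both livers 6 of 11 were higher and 1 was lower. Ly6d, a surface protein, had 72 and 1478 reads (4.04), Afp, the fetal counterpart of albumin, had 12 and 104 (2.66), and the imprinted RNA H19 had 1 and 28. Tnfrsf12a, the receptor for TWEAK on progenitor cells, had 211 and 896 (1.79).

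Few plasma protein genes of hepatocytes were called. Of 19 secreted proteins 1, Trf, was higher and none was lower, with a median of -0.08. Their summed level was 158413 CPM in corn oil and 174178 in CCl4. Of 19 transcription factors and receptors of the hepatocyte only Bcl6 (252 and 1260 reads, 2.03) was higher and only Onecut1 (135 and 61, -1.40) lower. Hnf4a had 15044 and 14492 reads (-0.34) and Cebpa 9640 and 6857 (-0.78).

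Drug-metabolizing genes were called in both directions. Among cytochromes P450 of families 1 to 3, 7 of 36 were higher and 8 were lower, with a median of -0.16. Cyp2a4, Cyp2b9, Cyp2b10 and Cyp3a44 entered only through the CCl4 library, where they are high, so their direction was fixed by the filter. With 10 reads in both livers 3 of 32 were higher and 8 were lower, against 8.08% and 4.59% of all genes compared. Cyp2b10, the classic target of the xenobiotic receptor CAR, had 4 reads in corn oil and 421 in CCl4 (5.90, interval 5.06 to 8.31), and Cyp2c55 had 19 and 442 (4.13). Cyp2c40 (203 and 18, -3.63), Cyp2c69 (168 and 19, -3.29) and Cyp2c37 (4042 and 1238, -1.99) were lower. Genes of these families are alike enough that the authors' read assignment may divide reads among them. Summed over the family, Cyp2c had a log2 ratio of -0.02, Cyp2d of -0.62 and Cyp3a of 0.64. The Cyp3a sum took 0.425% of the reads in corn oil, 0.781% in CCl4 and 0.0735% in chow, so the chow and corn oil controls differed more from each other than CCl4 did from corn oil.

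Glutathione transferases, which conjugate glutathione to reactive molecules, were called higher in 7 of 21 cases and lower in none, with a median of 0.56 and of 0.08 in the remaining pooled CCl4 counts. All 4 Gsta genes were higher and 2 of the 7 Gstm genes, Gstm1 and Gstm3, while the other Gstm genes had log2 ratios of 0.56 to 0.88. Gsta1 had 64 and 1821 reads (4.50), Gstm3 had 304 and 11923 (5.0, interval 4.84 to 5.17), and Gstm1 had 26013 and 92895 (1.55). The Gstm genes together took 0.156% of the reads in corn oil and 0.558% in CCl4. Gstp1 had 65032 and 47864 (-0.73). A further alpha class gene named by its size of change, Gm3776, had 22 and 1029 reads (5.15).

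Of 24 targets of NRF2, the sensor of electrophiles, 8 were higher and none was lower (median 0.63). Slc7a11 (0 and 11 reads) entered only through the CCl4 library, and with 10 reads in both livers 7 of 22 were higher. In the remaining pooled CCl4 counts over corn oil 5 of 24 were higher and 1 was lower (median 0.09). Over chow 7 were higher and none was lower (median 0.8). Gclc, the rate-limiting enzyme of glutathione synthesis, had 2779 and 8553 reads (1.33), and Nqo1 had 93 and 256 (1.16). Txnrd1 had 2062 and 3186 (0.34). Among carboxylesterases 3 of 13 were higher and 2 were lower, Ces4a (112 and 3 reads, with an interval of the log2 ratio from -7.81 to -3.93) and Ces3b (7474 and 1981, -2.20). Sult2a8, a bile acid sulfotransferase, had 10499 and 2801 (-2.19), the only call among 6 sulfotransferases.

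The major urinary proteins and other genes that male livers express more than female livers were among those with the lowest log2 ratios. The 20 lowest at 100 reads or more included Mup15, Mup17, Mup19, Mup9, Mup11, Mup7, Mup1, Mup16, Mup12 and Mup14, and the male-biased genes Moxd1, Hsd3b5 and Susd4. The others were Slc1a2, Oat, Cfd, Serpina4-ps1, Fitm1, Gm2083 and E030018B13Rik. This male pattern is set in rodents by pulses of growth hormone acting through STAT5 in the hepatocyte.

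The Mup genes are too alike for their single values to be trusted, so they are best read as a sum. All 21 together had 2039343 reads in corn oil and 154826 in CCl4, a log2 ratio of -4.01. That is 10.5% of the corn oil library and 0.768% of the CCl4 library, with 6.10% in chow and 0.704% in the remaining pooled CCl4 counts. Of the 21 genes 20 were lower. Mup18 had 7442 and 15895 reads (0.81), and 22549 in chow. Mup15 had 260453 reads in corn oil, 45274 in chow and 0 in CCl4.

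Of 19 male-biased liver genes 18 were lower and the median was -3.25, and 16 of the 17 with 10 reads in both livers were lower. Hsd3b5, a steroid reductase, had 454 reads in corn oil and 15 in CCl4 (-5.02), Elovl3, a fatty acid elongase, had 8783 and 731 (-3.87), and Cyp4a12a, an arachidonate hydroxylase, had 9038 and 1045 (-3.40). Cyp7b1, which hydroxylates oxysterols, had 4673 and 400 (-3.83). Moxd1 had 383 and 0 reads, at least 155.9-fold lower. In chow the same genes had 186, 14013, 8809, 8190 and 950 reads, so both controls were far above the CCl4 liver. Cyp2u1 was the gene not called, at 78 and 49 reads (-0.93).

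Of 9 female-biased liver genes with at least 10 reads 7 were higher and 2, Cyp17a1 and Cyp4a14, were lower, and the other 9 on the list stayed under that level in both livers. Cyp2a4, Cyp2b9, Cyp2b10 and Cyp3a44 entered only through the CCl4 library, where they are high, so the count is largely set by the filter. Of the 5 with 10 reads in both livers 3 were higher and 2 were lower. Cyp2a4, a testosterone hydroxylase of the female liver, had no read in corn oil, 2 in chow and 943 in CCl4, at least 257.4-fold higher than in corn oil. It differs little from Cyp2a5, which had 4395 reads in corn oil and 1108 in CCl4. Cyp2b9 had 1 and 113 reads, with a counting interval of the log2 ratio from 4.02 to 11.85, and Cyp3a44 had 0 and 29. Abcd2, a peroxisomal fatty acid transporter, had 157 and 1127 (2.54). The strictly female genes Sult2a1, Sult3a1 and Hao2 had no more than 4 reads in either liver. The summed level of the list went from 6357 to 2175 CPM, and Cyp4a14 held most of it in both livers.

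Of 15 genes of the growth hormone axis itself 1 was higher and 2 were lower, with a median of 0.12. Ghr, the receptor, had 4758 and 4336 reads (-0.42), Stat5b had 628 and 1115 (0.54) and Igf1 had 11028 and 7551 (-0.83). The feedback inhibitors that STAT5 induces were lower, Cish at 358 and 142 (-1.61) and Socs2 at 533 and 295 (-1.14). Bcl6, which represses many of the sex-biased genes, had 252 reads in corn oil, 1260 in CCl4 and 94 in chow.

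**Figure D4:**
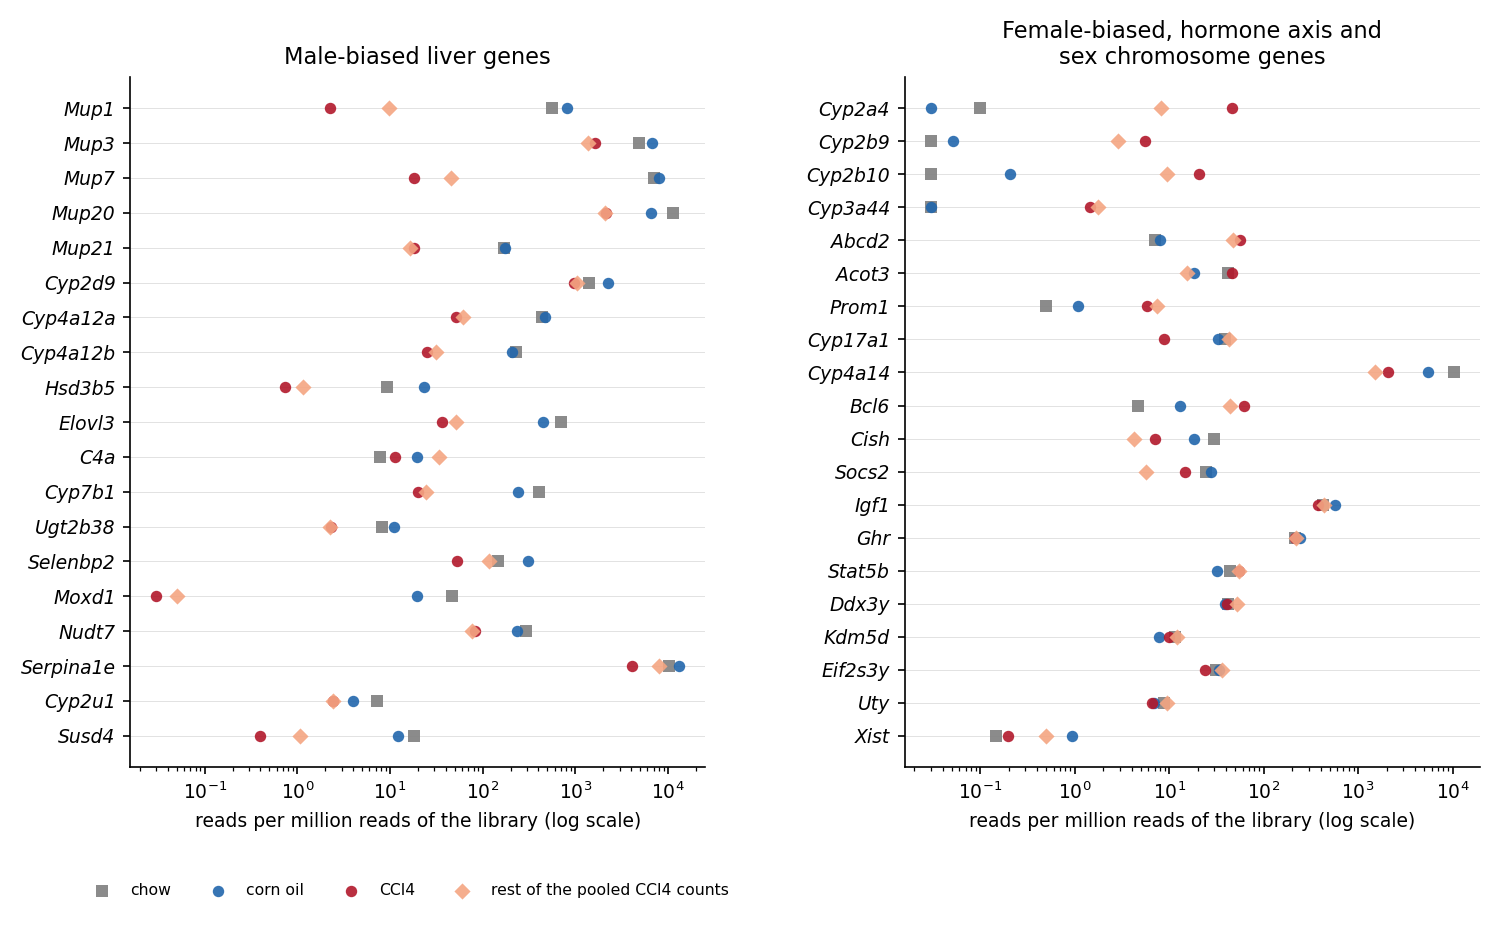
Reads scaled to the total of each library (log scale) for male-biased liver genes (left) and for female-biased, growth hormone axis and sex chromosome genes (right), in chow (grey), corn oil (blue), CCl4 (red) and the remaining pooled CCl4 counts (orange), with 0 drawn at 0.03. In most rows of the left panel the red and orange points stand left of the grey and blue points, and C4a and Cyp2d9 are among those where they lie close. Ddx3y, with 751 reads in corn oil and 828 in CCl4, and the other Y-linked genes lie together.

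Lipid genes split by pathway. Of 21 genes of fatty acid synthesis 8 were higher and 1, Elovl3, was lower, with a median of 0.71. With 10 reads in both livers 7 of 20 were higher and 1 was lower. Fasn had 1506 reads in corn oil and 6211 in CCl4 (1.75), Acly, which makes acetyl-CoA for it, had 699 and 2621 (1.62), and Pklr, the last enzyme of glycolysis, had 1350 and 5896 (1.84). Of 24 cholesterol synthesis genes 7 were higher and none was lower (median 0.68), with Sqle, squalene epoxidase, at 175 and 561 (1.38).

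Targets of PPARalpha, the receptor that drives fatty acid burning, were called in both directions over corn oil, but not over chow. Of 21 genes 4 were lower and 2, Pdk4 and Acot3, were higher, with a median of -0.35. Over chow 10 of the 21 were lower and none was higher (median -0.73). In the remaining pooled CCl4 counts over corn oil 7 were lower and 1 was higher (median -0.53). Cyp4a14 had 107814 and 41666 reads (-1.66), Cyp4a10 had 71264 and 35965 (-1.27), and the lipid droplet gene Cidec had 1987 and 503 (-2.27). Pdk4, which holds back pyruvate oxidation, was higher than in corn oil (364 and 1849, 2.05) but had 2207 reads in chow.

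Of 16 bile acid genes 4 were lower and none was higher (median -0.49). Cyp8b1, which makes cholic acid, had 19408 and 2950 reads (-3.01), and the bile salt uptake gene Slco1a1 had 4350 and 568 (-3.22). Cyp7a1, the rate-limiting enzyme of bile acid synthesis, had 1387 and 605 (-1.48), but chow had 339. Abcb11, the export pump, had 4230 and 8217 (0.67). Cyp7b1, Slco1a1 and Elovl3 are also more highly expressed in males.

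Acute phase genes were called mostly higher over corn oil, but in both directions over chow. Of 23 genes 5 were higher and 1 was lower than in corn oil, with a median of 0.29. Over chow 4 were higher and 3 were lower (median 0.21), Itih4 changed direction (-0.15), and Saa1 had 14765 reads in chow. Lcn2, an iron-trapping defence protein, had 208 and 2714 reads (3.41) and Orm2 had 272 and 1363 (2.03), whereas Saa1 had 4759 and 5311 (-0.13) and Hp 71831 and 83986 (-0.06). In the remaining pooled CCl4 counts the list median was 1.16, with log2 ratios of 6.12 for Lcn2 and 1.32 for Saa1.

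Clock genes stood in opposite directions by phase. Of 11 genes that peak with Dbp 6 were lower and none was higher (median -1.02). Of 6 that peak with Bmal1 3 were higher and none was lower (median 1.00). Dbp had 824 and 96 reads (-3.36) and Npas2 had 27 and 179 (2.36). The hour at which each liver was taken is not stated, so time of day and treatment cannot be told apart. With chow as the control the median of the Dbp phase was -0.41, and Ciart, with 155 reads in corn oil, 23 in CCl4 and 13 in chow, changed direction.

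A further list held genes assayed by other methods in fibrotic mice of this experiment. Of 26 compared 7 were higher and 4 were lower, with a median of -0.11. The higher ones were Col1a1, Timp1, Mmp8, Tgfb1, Gstm1, Hmox1 and Cd68, and the lower ones Mmp3, Il1b, Ppargc1b and Cyp2e1. Mmp8 (0 and 10 reads) entered only through the CCl4 library. Mmp3 (12 and 0) and Il1b (22 and 9) entered only through the corn oil library. With 10 reads in both livers 6 of 21 were higher and 2 were lower. Il6 and Tnf had at most 4 reads in either liver. These genes were picked on animals of this experiment, so their directions are not independent evidence. The adiponectin receptor genes Adipor1 (2050 and 2886 reads, 0.20) and Adipor2 (7941 and 10236, 0.08) were not called. Cdh13, T-cadherin, which binds adiponectin, was lower (40 and 15, -1.57).

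Among the corn oil, CCl4 and chow livers, the adipocyte genes Cfd and Adipoq were read mainly in corn oil. Cfd had 175 reads in corn oil and 2 each in CCl4 and chow, and Adipoq had 11, 1 and 0. The high-fat diet liver had 454 reads of Cfd. Fabp4, shared by adipocytes, endothelium and macrophages, had 195 and 87 reads (-1.43), and 260 in chow. Mesothelial genes were at like levels in both livers and low in chow, with Msln at 118, 108 and 6 reads. Globin genes summed to 0.0504% of the reads in corn oil, 0.0266% in CCl4 and 0.169% in the remaining pooled CCl4 counts, and their part in the values of immune genes was not tested.

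**Figure D5:**
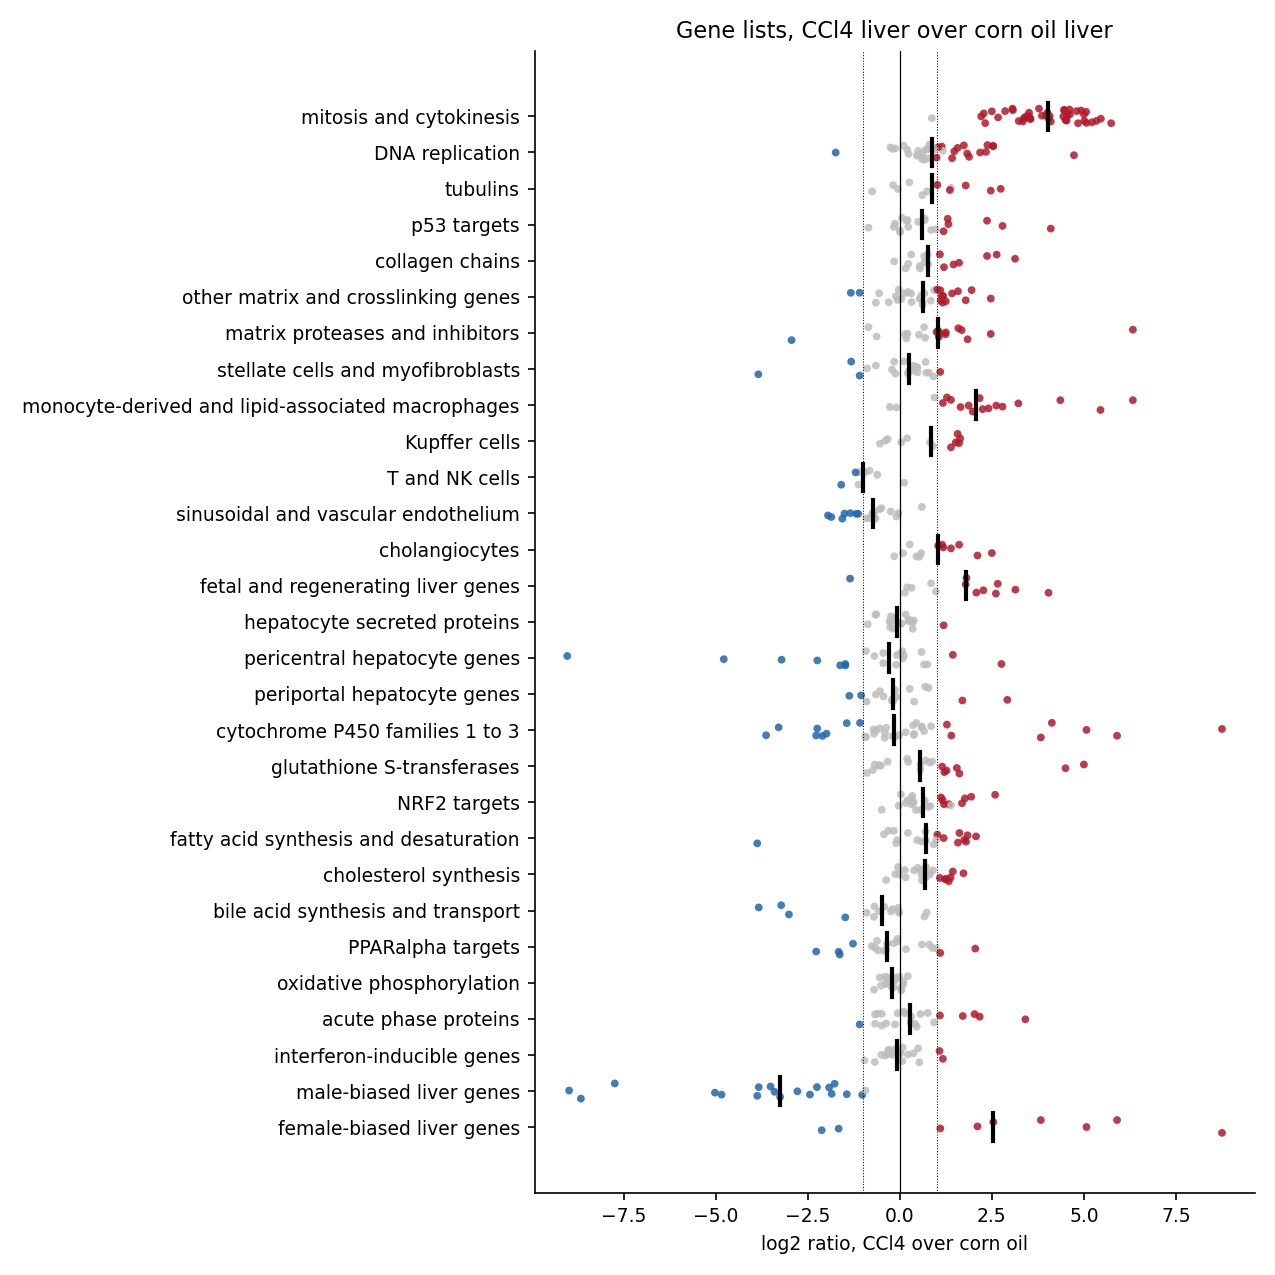
Log2 ratio of CCl4 over corn oil for the members of 29 gene lists with at least 10 reads in either liver (points), red where called higher, blue where called lower, grey where not called. Black bars mark list medians and dotted lines log2 ratios of -1 and 1. The mitosis list, with a median of 4.03, stands highest, and the male-biased list, at -3.25, lowest.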

How the data were processed

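RNA of whole liver was sequenced on the BGISEQ-500 platform. Per the submitters' processing notes the tools were HISAT, Bowtie2 and RSEM with the mm9 build, and versions are not given in the sources used here. The authors deposited an expected count and an FPKM (fragments per kilobase, scaled to depth) value per gene. The deposited tables also hold the authors' own fold changes, p-values and q-values, which were not used, and 7 columns of values that match no sample or group.

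Expected counts were rounded, and effective library sizes came from TMM in edgeR 4.0.16 (R 4.3.3). The log2 ratio has a prior count of 2, and its 95% Clopper-Pearson interval (scipy 1.17.1) covers counting error only. Genes with 10 counts in either library were compared. A gene at 0 was bounded against a floor of 3 counts per library. The procedure was tested on simulated data. Gene lists, and the members of the comparison, were chosen with earlier results of these data known. Named genes are list members, the 20 largest called log2 ratios in each direction at 100 counts or more, and the 10 largest gains and losses in CPM (counts scaled to depth). Other lists' members are named for their role, and a few items are not reported here. Promoters are from RefSeq tables on GRCm38.p6, not the build of the files. Alternatives were scaling by total reads or DESeq2 1.42.0 size factors, other count minimums, prior counts and thresholds, FPKM plus 1, GC and length correction, the pooled CCl4 column, and chow as the control.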

Additional observations from a re-analysis of the deposited data

How the results depend on the processing

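Scaling by total reads gave 1581 genes higher and 404 lower, a minimum of 100 counts 551 and 280, a log2 ratio of at least 2 367 and 136, and log2 of FPKM plus 1 612 and 151, against 1099 and 624. The fewer calls at 100 counts and at the stricter ratio follow from their construction, and the cause of the others was not tested. The counts under DESeq2 size factors, TMM over the pair alone, a minimum of 1 count, a prior count of 0.5, no requirement on the interval, the pooled CCl4 counts, chow as the control, and GC and length bins stayed within 1.5 times the main counts. No called gene named here changed direction under scaling by total reads, DESeq2 size factors, a prior count of 0.5, FPKM plus 1, or GC and length bins.

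When the pooled CCl4 column replaced the single library these changed direction, and the cause was not tested: the red blood cell median (0.98), Hbb-bs (1.08), Hbb-bt (0.98), Hba-a2 (0.73), Fabp4 (0.0), Mt1 (0.34), Mt2 (0.73), Ccl5 (0.33) and C4a (0.13). With chow as the control these did, and the cause was not tested: Adipoq (0.56), Adamts1 (-0.67), Cd5l (-0.86), C1qb (-0.2), C1qc (-0.03), Csf1r (-1.07), Adgre1 (-0.74), Itgam (-0.16), Marco (-1.01), Ccl6 (-0.43), Cyp2a5 (0.58), Cyp7a1 (0.69), Gpc3 (2.1), Itih4 (-0.15), Acot3 (-0.0), Mt1 (2.19), Mt2 (3.75), Tpm2 (0.23), Ciart (0.61), Sds (0.19), Pdk4 (-0.4), Rhbg (0.05), C4a (0.37) and Ern1 (-0.83).

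No paired analysis was possible because each group holds 1 library, and none was left out for the same reason. Depth limits the values of genes with few reads, such as those of lymphocytes and neutrophils.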

Other observations

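Stress response genes differed by branch. Of 16 genes of the integrated stress response 5 were higher and 2 were lower. Atf3, a transcription factor of acute stress, had 15 reads in corn oil and 248 in CCl4 (log2 ratio 3.61), and Gdf15, a secreted stress hormone, had 115 and 661 (2.22). The serine synthesis gene Phgdh had 2 and 40 and Psat1 had 17 and 110. Asns, asparagine synthetase, was lower, at 590 and 142 (-2.33), and had 205 in chow. Of 21 genes of folding and degradation in the endoplasmic reticulum 1, Ern1, was higher, and none was lower. Among 14 heat shock genes only Hspb1 was called (1278 and 461 reads, -1.75).

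Of 14 immediate early genes Jun (349 and 1367 reads, 1.68), Egr1 (418 and 1463, 1.51), Klf6 (102 and 438, 1.80) and Gadd45b (105 and 277, 1.1) were higher and Nr4a1 (181 and 30, -2.79) was lower. Mt1, a metallothionein that binds zinc and copper, had 10896 reads in corn oil, 4102 in CCl4 and 815 in chow. The hypoxia and differentiation gene Ndrg1 had 274 and 1862 (2.47). Of 15 genes of glucose and glycogen handling Pygl (3224 and 9451, 1.26) and Gbe1 (595 and 1765, 1.28), both of glycogen metabolism, were higher. Among 11 genes of iron handling the second hepcidin gene Hamp2 was higher (138 and 768, 2.17), while Hamp had 8596 and 8132 (-0.37).

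Several lists held few calls or none, where 8.08% of all genes were higher and 4.59% were lower. No gene was called among 28 complement and coagulation factors, 19 of oxidative phosphorylation and 5 of the mesothelium. Of 20 interferon-inducible genes Ifi27l2a (47 and 132 reads, 1.17) and Bst2 (1837 and 4738, 1.08) were higher, and of 12 MHC genes H2-DMa (26 and 77, 1.22). Of 19 apoptosis genes Ripk3 (8 and 27, 1.29) was higher and Bik (190 and 100, -1.20) and Bmf (134 and 61, -1.39) were lower. Ripk3 entered only through the CCl4 library. Of 14 glucuronosyltransferases Ugt1a9 (840 and 2759, 1.43) was higher and the male-biased Ugt2b38 (213 and 46, -2.44) lower.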
